A study of Rattus norvegicus with 12 samples.

Results

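Iron leaves the absorptive cell of the gut through 1 known exporter, and iron that is not exported is stored in ferritin. The 6 genes described here cover both fates: Slc40a1 (ferroportin, the basolateral iron exporter), the multicopper ferroxidases Heph (hephaestin, anchored in the enterocyte membrane) and Cp (ceruloplasmin, mainly a plasma protein made in the liver), the ferritin subunits Fth1 (heavy chain, which carries the ferroxidase centre) and Ftl1 (light chain, which promotes iron core formation), and Ncoa4, the receptor that delivers ferritin to the lysosome so that its iron is released. Exported iron is oxidised by a ferroxidase before it binds transferrin in plasma. Transcripts of both ferritins and some forms of the Slc40a1 transcript carry an iron-responsive element in their leader. Through it, iron regulatory proteins hold back translation when iron is scarce. The protein of these 3 genes can therefore change without a change of the mRNA. Only mRNA was measured here.

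All probe sets (groups of short oligonucleotides that together measure 1 transcript) whose annotated symbols include 1 of the 6 genes were taken, which gave 10 of 31099 probe sets. Slc40a1 and Cp had 3 probe sets each and the other 4 genes 1 each. The Fth1 probe set also lists the pseudogene Fth1-ps5, and the Ftl1 probe set lists 5 genes (Ftl1-ps14, LOC100362384, LOC100360087, Ftl1l2 and Ftl1), so neither ferritin signal can be assigned to 1 gene. A mean signal of at least 100 over all arrays was passed by 9 of the 10, and the Cp probe set 1368419_at, which did not pass, was not tested.

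The arrays measured mucosal scrapes of 4 groups of Belgrade rats: b/b jejunum, +/b jejunum, b/b duodenum and +/b duodenum, with 3 arrays in each and 12 in all. The Belgrade strain carries a recessive mutation of Slc11a2, which encodes DMT1, the transporter that brings iron into the enterocyte. Homozygous b/b rats are known to be anaemic, and the +/b rats they were set against also carry 1 mutant allele, so no wild-type gut is in the comparison. The duodenum labels write the heterozygote as +b, read here as +/b from the series title. The labels name no treatment, diet, age or sex. The 12 arrays came from 6 groups of rats, 3 of each genotype, and every group of rats supplied 1 jejunum and 1 duodenum array. The number of rats in a group is not given in the sources used here. P-values therefore measure the spread between arrays of different groups of rats, not between single rats. The main fit treats the 12 arrays as independent, and the pairing of segments enters only where a block is named.

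Several properties of the arrays bear on the values below. Replicates 2 and 3 of +/b duodenum had been deposited on a lower scale and were multiplied by 9.69 and 3.95 to reach the trimmed mean of 500 used for every array. The b/b duodenum array 1 stood apart, with a median rank correlation (Spearman) of 0.836 with the rest, against 0.875 to 0.917 for the remaining ones. All 9 measured markers of absorptive enterocytes were present at a signal of at least 100, with summed signals of 161668 to 441446 in b/b jejunum, 168918 to 376569 in +/b jejunum, 167679 to 613130 in b/b duodenum and 241065 to 450868 in +/b duodenum. Exocrine pancreas markers (13 of 14 measured) summed to 173897 in +/b duodenum array 2 and to 8527 in b/b duodenum array 3, against 1148 to 2141 on the other 10 arrays.

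To show where transcription of the members with the widest differences between groups begins, the 250 bases before a RefSeq start site (build GRCr8, the rat reference assembly) are printed for Slc40a1 (chr9:55543461-55543710, minus strand) and Ncoa4 (chr16:7401541-7401790, plus strand), 5′ to 3′ on the strand of the gene. Capitals mark 3 motifs searched on both strands, which are ACGTG and GCGTG (the core letters bound by hypoxia-inducible factors) and TATAA (the TATA box).
Slc40a1: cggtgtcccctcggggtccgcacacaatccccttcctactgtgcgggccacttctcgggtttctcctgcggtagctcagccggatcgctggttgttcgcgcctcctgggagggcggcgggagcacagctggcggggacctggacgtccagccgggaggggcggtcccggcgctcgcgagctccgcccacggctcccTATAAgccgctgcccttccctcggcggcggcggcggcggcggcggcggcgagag
Ncoa4: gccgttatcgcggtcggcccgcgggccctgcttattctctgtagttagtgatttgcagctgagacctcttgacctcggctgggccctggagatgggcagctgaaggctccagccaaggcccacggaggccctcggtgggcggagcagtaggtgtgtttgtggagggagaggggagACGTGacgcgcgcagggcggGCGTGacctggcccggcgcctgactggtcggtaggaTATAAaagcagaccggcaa

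The Ncoa4 window held ACGTG beginning 75 bases before the start, GCGTG at 55 bases and TATAA at 19 bases. The Slc40a1 window held TATAA at 54 bases and neither hypoxia core in these 250 bases. Of 33469 rat windows of the same length, 16.6% hold ACGTG, 25.9% GCGTG and 24% TATAA, so each motif is common and a match is only a description of the letters. RefSeq windows matched 4 of the 6 members.

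Slc40a1 signal was far lower in the jejunum than in the duodenum on all 3 of its probe sets and in both genotypes. On 1387130_at the b/b jejunum arrays had signals of 1045, 889 and 2586 and the +/b jejunum arrays 788, 2034 and 2186. The b/b duodenum arrays had 8849, 21417 and 15909, and the +/b duodenum arrays 7077, 6276 and 11390.1. Every jejunum array lay below every duodenum array, and the jejunal ranges of both genotypes overlapped.

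Probe set 1390412_at gave nearly the same profile. Its signals were 923, 674 and 2070.3 in b/b jejunum, 674, 1367 and 1853 in +/b jejunum, 7945, 19150.3 and 15667 in b/b duodenum and 7536, 7786 and 8881 in +/b duodenum. Centred on their own means, the 2 log2 profiles differed by a root mean square of 0.22 over the 12 arrays. The dimmer probe set 1376972_at differed from these by 0.51 and 0.61. It had 123, 123 and 358 in b/b jejunum, 96.0, 313 and 338 in +/b jejunum, 988, 1257 and 842 in b/b duodenum and 844, 828 and 1102 in +/b duodenum, again with no overlap between the segments.

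**Figure D1:**
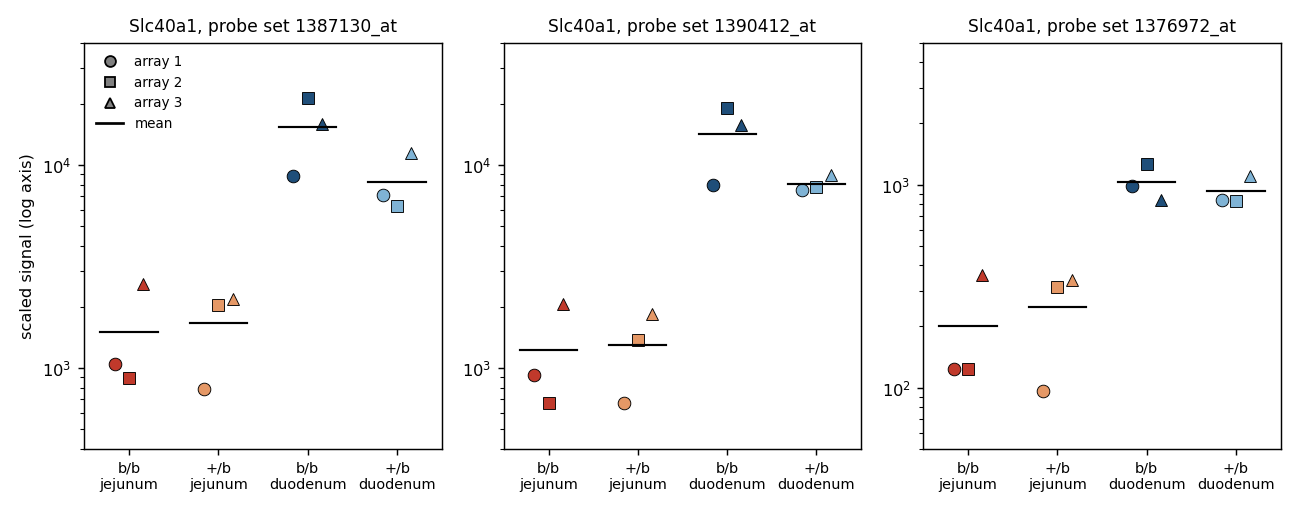
Scaled signal (log axis) of the 3 Slc40a1 probe sets on every array, by group; the symbol gives the array number and the bar the mean of 3. All jejunum arrays lie below all duodenum arrays on each probe set, and in the duodenum b/b arrays 2 and 3 lie above every +/b array on the first 2 probe sets.

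In b/b rats the jejunum against duodenum difference passed the test on all 3 probe sets (limma, a linear model over all probe sets, with a Benjamini-Hochberg adjusted p threshold of 0.05). On the log2 scale it was -3.41 ± 0.46 (SE, n = 3 per group) for 1387130_at, 10.7-fold lower (adjusted p = 0.00246 in limma). It was -3.60 ± 0.43 for 1390412_at, 12.1-fold lower (limma adjusted p = 8.28e-04), and -2.42 ± 0.44 for 1376972_at, 5.34-fold lower (limma adjusted p = 0.0196). These were the 3 called among the 9 tested member probe sets, where the test called 0.418% of all 17694 probe sets lower in the jejunum. Signal in a scrape cannot tell fewer Slc40a1-expressing cells from less mRNA per cell. The call for 1376972_at was lost without b/b jejunum array 1 or 2 or b/b duodenum array 2 or 3 (limma adjusted p from 0.0540 to 0.130), without an intensity trend in the fit (0.0627) and with values as deposited (0.175), while those of the brighter pair held without any single array.

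In +/b rats the same differences were -2.38 ± 0.46, -2.73 ± 0.43 and -1.99 ± 0.44 for 1387130_at, 1390412_at and 1376972_at. Only 1390412_at passed (6.65-fold lower, limma adjusted p = 0.0363), where 0.0339% of all probe sets were called lower. Its call was lost without any 1 of the +/b duodenum arrays, +/b jejunum array 1 or 2, b/b jejunum array 1 or b/b duodenum array 2 (limma adjusted p from 0.0571 to 0.212), and the change then ran from -2.33 to -2.83. With values as deposited, which leaves the 2 dim +/b duodenum arrays unscaled, it was -0.99 (limma adjusted p = 0.206). With each group of rats as a block, which uses the pairing of the segments, 2 of the 9 passed, 1390412_at (limma adjusted p = 0.0046) and 1387130_at (limma adjusted p = 0.00962), where 0.316% of all probe sets were called lower. Probe set 1376972_at had an adjusted p of 0.0540 in limma with that block.

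Paired within each group of rats, Slc40a1 was lower in the jejunum in 3 of 3 groups of either genotype on each probe set. For 1387130_at the ratio of duodenum to jejunum ran from 6.15 to 24.1 over the b/b groups and from 3.09 to 8.98 over the +/b groups. For 1390412_at it ran from 7.57 to 28.4 over the b/b groups and from 4.79 to 11.2 over the +/b groups, so the ranges of the genotypes overlapped on both. Macrophages also express Slc40a1. Their markers (11 of 14 measured, led by Lyz2) summed to 12630 to 25053 in b/b jejunum and 15487 to 31812 in +/b jejunum, against 5933 to 10708 in b/b duodenum and 7791 to 15917 in +/b duodenum. The sums were higher in the jejunum without overlap in b/b rats and overlapped in +/b rats. Most of each sum was Lyz2, with means of 15760 in b/b jejunum and 5043 in b/b duodenum, so the sums mainly follow that gene. In b/b rats Cd163 (59.5 against 119) and Itgam went the other way. In +/b rats Cd163 (68.2 in jejunum against 73.6 in duodenum) and Adgre1 (67.6 against 88.5) did so. The mean log2 level of the list was 8.15 to 8.57 in b/b jejunum and 7.87 to 8.08 in b/b duodenum. The part of macrophages in the Slc40a1 signal was not tested.

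Crypt and Brunner gland markers also differed between the segments, without overlap in b/b rats but with overlap in +/b rats. Markers of crypt and cycling cells (6 of 7 measured) summed to 4573 to 7390 in b/b jejunum and 6623 to 11444 in +/b jejunum, against 2737 to 3827 in b/b duodenum and 3586 to 7960 in +/b duodenum. Those of Brunner glands, which lie in the duodenum (2 of 3 measured), summed to 150.4 to 296 in b/b jejunum and 164 to 294 in +/b jejunum, against 343 to 1371 in b/b duodenum and 205 to 847 in +/b duodenum. Of the Brunner gland markers, Tff2 differed (means of 81.5 in b/b jejunum and 537 in b/b duodenum), whereas Muc5b was nearly level (157 and 152). The highest Brunner gland sums were 1371 on b/b duodenum array 3 and 847 on +/b duodenum array 2. These arrays also had the highest pancreas marker sums. Arrays 1 and 2 of b/b duodenum had Brunner gland sums of 353 and 343. The part of crypt cells or Brunner glands in the Slc40a1 difference was not tested. Goblet cell markers (5 of 5 measured), smooth muscle markers (5 of 5) and liver markers (8 of 8) overlapped between the segments in both genotypes. The liver sum was mostly Apoc3, with group means of 20198.8 to 32721.5. Alb had means of 128 in b/b jejunum and 138 in +/b jejunum, against 305 in b/b duodenum and 1121 in +/b duodenum. Fga and Hpx were instead higher in the jejunum of both genotypes.

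Between genotypes, no member probe set passed in either segment, 0 of 9, where 0.0396% of all probe sets were called in the duodenum and 0.0339% in the jejunum. Unadjusted p-values under 0.05 in limma went to 1 of the 9 in the duodenum (Ncoa4) and 0 of the 9 in the jejunum, where 6.17% and 1.34% of all probe sets had one. The median change over the 9 was 0.07 in the duodenum and -0.03 in the jejunum, beside -0.05 and -0.03 over all probe sets tested.

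Slc40a1 in b/b against +/b duodenum had a log2 change of 0.86 ± 0.46 on 1387130_at (95% interval -0.12 to 1.84), 0.73 ± 0.43 on 1390412_at (-0.18 to 1.64) and 0.14 ± 0.44 on 1376972_at (-0.79 to 1.08), with limma adjusted p of 0.804, 0.812 and 0.976. The b/b arrays were divided. Array 1, the one that stood apart, had 8849 on 1387130_at and 7945 on 1390412_at, within the +/b range, while arrays 2 and 3 lay above every +/b array on both. Without b/b duodenum array 1 the changes were 1.21 ± 0.48 and 1.10 ± 0.43 (limma adjusted p = 0.467 and 0.466), and without b/b duodenum array 2 they were 0.57 and 0.47.

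In the jejunum the 3 probe sets had log2 changes of -0.18 ± 0.46, -0.13 ± 0.43 and -0.28 ± 0.44 in b/b against +/b rats, each with overlapping groups. The difference between the segments in the genotype effect (jejunum minus duodenum) was -1.04 ± 0.65 for 1387130_at (95% interval -2.42 to 0.35) and -0.86 ± 0.60 for 1390412_at (-2.16 to 0.43). It passed for none of the 9 member probe sets, and limma called 0% of all probe sets in that comparison, with 306 (1.73%) at an unadjusted p under 0.05 in limma, none of them a member. These intervals take in both no difference and one of several-fold.

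**Figure D2:**
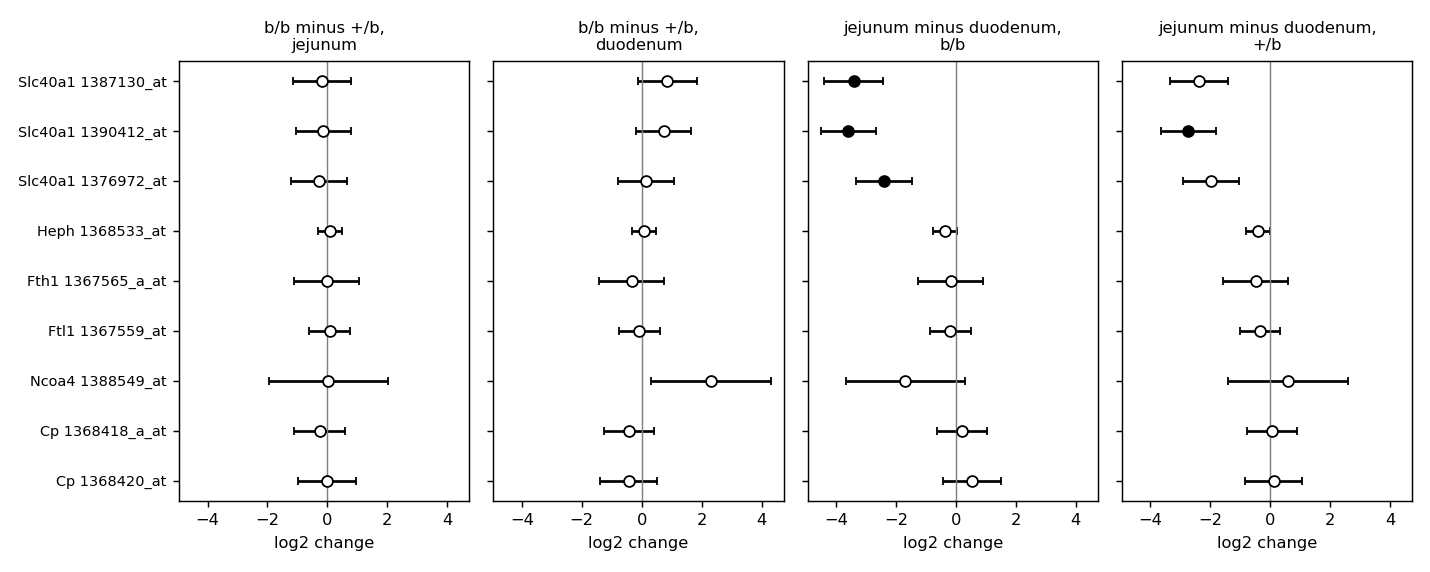
Log2 changes of the 9 tested member probe sets in 4 comparisons, with 95% intervals of the limma fit; filled points passed the adjusted threshold. The filled points are the 3 Slc40a1 probe sets in b/b rats and 1390412_at in +/b rats, all lower in the jejunum.

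Heph was the steadiest member. Its signals were 11643, 10889 and 10324 in b/b jejunum, 10567, 11282 and 8943 in +/b jejunum, 14761, 14686 and 12964 in b/b duodenum and 11752, 14310.3 and 14555 in +/b duodenum. All jejunum arrays lay below all duodenum arrays, but by much less than for Slc40a1. The log2 change from duodenum to jejunum was -0.37 ± 0.19 in b/b rats and -0.40 ± 0.19 in +/b rats (limma adjusted p = 0.562 and 0.927), and neither passed, also not with the rat group as a block (limma adjusted p = 0.188 and 0.296). Of the 9 member probe sets, 5 did not overlap between the segments in b/b rats and 4 in +/b rats, all lower in the jejunum, where 5.3% and 4.71% of all probe sets were lower without overlap. They were the 3 of Slc40a1 and Heph in both genotypes, with Ncoa4 in b/b rats.

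Between genotypes the Heph changes were small and closely bounded. Heph had 0.07 ± 0.19 in b/b against +/b duodenum (95% interval -0.33 to 0.46) and 0.10 ± 0.19 in the jejunum (-0.30 to 0.50). A change of 1 on the log2 scale lies outside both intervals, whereas for the brightest Slc40a1 probe set 1387130_at the duodenal interval reached 1.84.

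Cp, the plasma ferroxidase, was dim on all 3 probe sets. On 1368418_a_at, the brightest, the signals were 87.9, 199 and 160.0 in b/b jejunum, 167, 198 and 156 in +/b jejunum, 179, 92.2 and 109 in b/b duodenum and 239, 107 and 181 in +/b duodenum. Probe set 1368420_at ranged from 32.9 to 153 and the untested 1368419_at from 21.1 to 193 over the 12 arrays. The groups overlapped on both tested probe sets in each comparison, and the b/b against +/b changes in the duodenum were -0.41 ± 0.39 and -0.44 ± 0.45 (limma adjusted p = 0.893 and 0.905). The median signal of all probe sets on an array lay between 108 and 181, and the Cp probe sets ranked between the 14.8th and the 62.2nd percentile of their arrays.

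Ncoa4 differed most in the duodenum, and that difference rested on 1 array. The b/b duodenum arrays had 17244, 17233 and 15692, whereas the +/b duodenum arrays had 12096, 9169 and 326. In the jejunum the b/b arrays had 8557, 4582 and 3472 and the +/b arrays 6088, 5127 and 4115. Array 3 of +/b duodenum stood at -4.95 on the log2 scale relative to the mean of the other 2 of its group, and the lowest of the other 11 arrays had 3472. On that array, 59 probe sets (0.333% of those tested) lay at least 4 below the others of the group, against 0 to 11 on each of the other arrays, and 15 lay as far below as Ncoa4, itself included. Arrays 2 and 3 of +/b duodenum were both deposited on the lower scale, and array 2 had an Ncoa4 signal of 9169. The cause of the low value on array 3 was not tested.

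The Ncoa4 change in b/b against +/b duodenum was 2.31 ± 0.93 (95% interval 0.33 to 4.30, limma adjusted p = 0.789). The groups did not overlap, as was the case for 3.18% of all probe sets in that direction. Without +/b duodenum array 3 the change was 0.66 ± 0.32 (limma adjusted p = 0.833), still with every b/b array above both remaining +/b arrays. In the jejunum it was 0.03 ± 0.93.

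Along the gut, Ncoa4 changed by -1.70 ± 0.93 from duodenum to jejunum in b/b rats (limma adjusted p = 0.607) and by 0.59 ± 0.93 in +/b rats (0.99), with the low array in the fit. Without +/b duodenum array 3, the b/b change had an SE of 0.29 and passed (3.24-fold lower, limma adjusted p = 0.0127), and the +/b change turned to -1.06 ± 0.32 (limma adjusted p = 0.645). That array is not in the b/b contrast; its removal lowered the spread that all groups share in the fit. Within the groups of rats, Ncoa4 was lower in the jejunum in 3 of 3 b/b groups (duodenum over jejunum 2.02 to 4.52) and in 2 of 3 +/b groups.

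**Figure D3:**
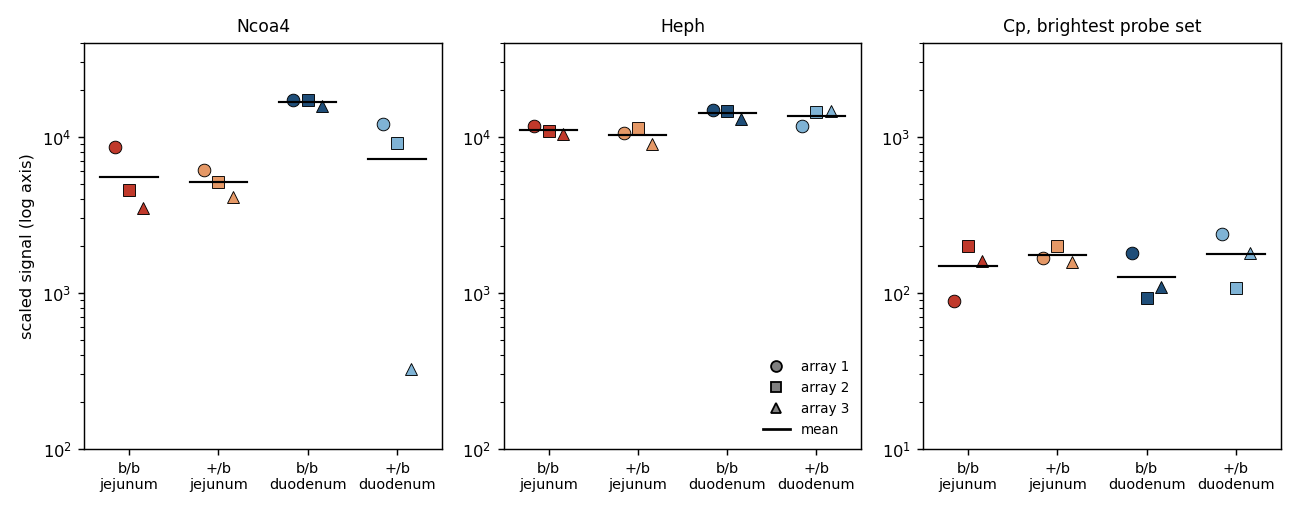
Scaled signal (log axis) of Ncoa4, Heph and the brightest Cp probe set on every array, by group; symbols give the array number and bars the mean of 3. Ncoa4 on +/b duodenum array 3, at 326, lies far below its group, Heph stays between 8943 and 14761, and Cp stays between 87.9 and 239.

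**Figure D4:**
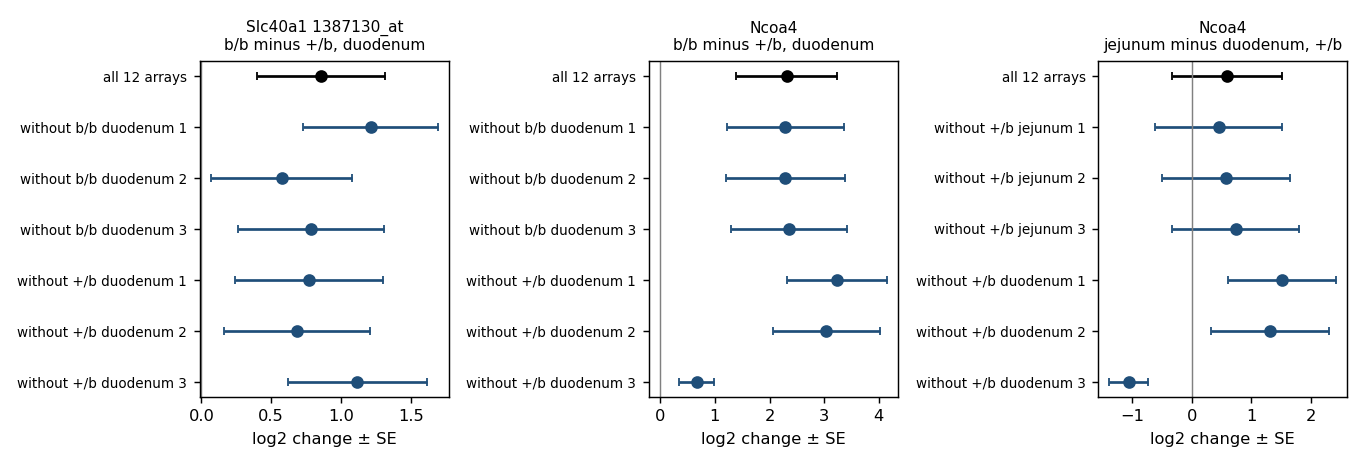
Log2 changes ± SE of Slc40a1 (1387130_at) and Ncoa4 with all 12 arrays and without each array of the groups compared. The Ncoa4 change between genotypes drops to 0.66 and the change between segments in +/b rats turns to -1.06 when +/b duodenum array 3 is left out.

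The ferritin probe sets were bright in every group and differed more between array numbers than between groups. Fth1 had 61667, 38535 and 21772 on arrays 1, 2 and 3 of b/b jejunum, 54403, 42226 and 23914 on those of +/b jejunum, 93644, 33898 and 23415 on those of b/b duodenum and 66909, 61333 and 36551 on those of +/b duodenum. In each of the 4 groups array 1 was the highest and array 3 the lowest, although b/b and +/b arrays came from different rats. Ftl1 had 24964, 20065 and 12998 in b/b jejunum, 22234, 19161 and 13070 in +/b jejunum, 29405, 21751 and 15056 in b/b duodenum and 24939, 25908 and 17664 in +/b duodenum, and array 3 was the lowest of each group.

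The bright end of the arrays moved the same way. The 99.9th percentile of all signals was 41480 to 55630 on the arrays numbered 1, 29463 to 39979 on those numbered 2 and 19081 to 27731 on those numbered 3. Over all tested probe sets 1.84% were highest on array 1 and lowest on array 3 in every group, and over the 435 with a mean signal of at least 10000 it was 31.7%. Ranked within its array, Fth1 lay between the 99.95th and the 99.98th percentile on each of the 12 arrays. Quantile normalization, which gives every array the same distribution, left Fth1 between 42012 and 49255 and Ftl1 between 18225 and 22858. It would also hold a transcript at the top of each array near 1 value, so it cannot show whether Fth1 differed between rats.

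**Figure D5:**
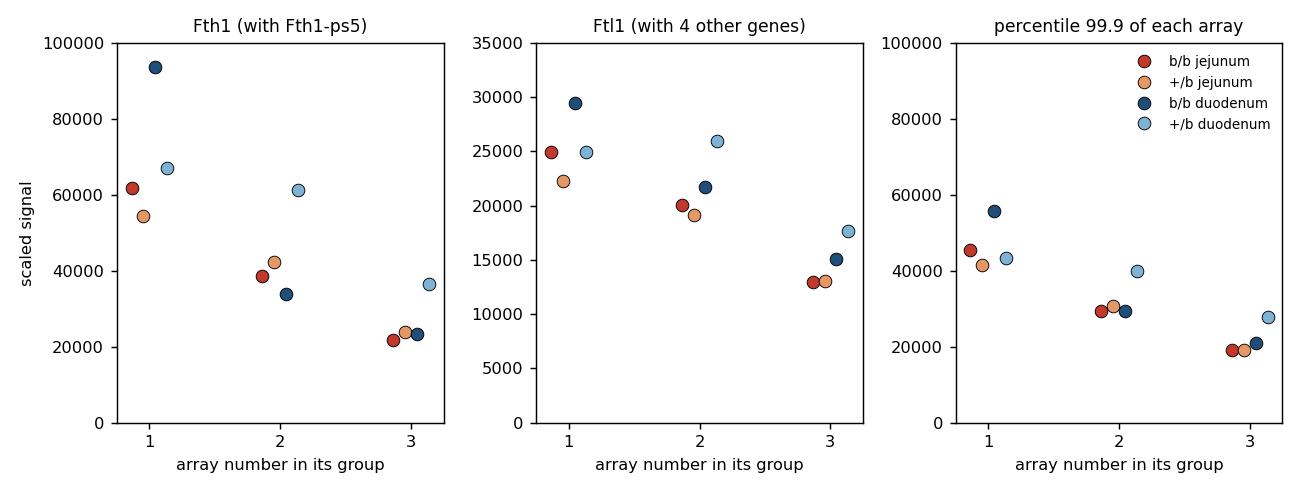
Scaled signal of the Fth1 and Ftl1 probe sets and the 99.9th percentile of each array, against the number of the array in its group, coloured by group. Arrays numbered 3 hold the lowest value of each group in all panels, with Fth1 at 21772 to 36551.

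Neither ferritin differed between genotypes beyond that spread. In b/b against +/b duodenum Fth1 had -0.34 ± 0.51 (95% interval -1.42 to 0.75) and Ftl1 -0.08 ± 0.32 (-0.76 to 0.60), with limma adjusted p of 0.938 and 0.979. In the jejunum Fth1 had -0.03 ± 0.51 and Ftl1 0.08 ± 0.32.

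From duodenum to jejunum the ferritin changes were also within the spread. Fth1 had -0.17 ± 0.51 in b/b rats and -0.48 ± 0.51 in +/b rats, and Ftl1 -0.19 ± 0.32 and -0.34 ± 0.32. Paired within rat groups, both were lower in the jejunum in 3 of 3 +/b groups, by ratios of 1.23 to 1.53 for Fth1 and 1.12 to 1.35 for Ftl1. In b/b groups Ftl1 was lower in 3 of 3 and Fth1 in 2 of 3. Blocked by rat group, the +/b change of Fth1 had an SE of 0.15 and a limma adjusted p of 0.274. Blood and reticulocyte markers (10 of 16 measured, 4 of them at a mean signal of at least 100, led by Hbb) summed to 11068 to 15204 in b/b jejunum and 13473 to 18617 in b/b duodenum, against 2310.1 to 3470.5 in +/b jejunum and 2261 to 4297 in +/b duodenum. Hbb had means of 11406 in b/b jejunum and 2208 in +/b jejunum. In the jejunum Slc4a1 (90.5 in b/b against 131 in +/b) and Gata1 (59.7 against 67.8) went the other way. Epor did so in the duodenum (78.1 in b/b against 98.1 in +/b). Red cell precursors hold ferritin, and the part of blood RNA in the ferritin signals was not tested.

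Of 48 other genes of iron uptake, sensing, chaperoning, copper supply, ferritin turnover and heme breakdown, 35 were tested. Each was read on the brightest probe set that lists that gene alone. In b/b jejunum against b/b duodenum 3 were called lower and 1 higher, where 135 of all 17694 probe sets were called in either direction. The lower ones were Cybrd1, the brush border ferric reductase (-5.61 ± 0.41), Slc11a2 (-4.25 ± 0.55) and Epas1, a subunit of the hypoxia-inducible factor that activates Slc40a1 in mouse gut (-2.11 ± 0.37), with limma adjusted p of 1.78e-05, 0.00184 and 0.0153. Slc39a8, a metal importer, was higher (1.02 ± 0.18, limma adjusted p = 0.018). Blocked by rat group, these 4 passed again and 5 more genes were called, where 431 of all probe sets were called in either direction. Higher in the jejunum were Hif1a, another hypoxia-inducible factor subunit (1.08), Fbxl5, which marks an iron regulatory protein for breakdown (0.68), and Aco1, an iron regulatory protein (0.62), with limma adjusted p of 0.0015, 0.0229 and 0.0355 under the block. Lower were the copper transporter Atp7a (-1.57) and the heme oxygenase Hmox1 (-1.30), with limma adjusted p of 0.0138 and 0.0270 under the block, against 0.198 and 0.411 without. In +/b rats the same contrast called 0 of the 35 in limma, where 10 of all 17694 probe sets were called in either direction. Cybrd1 had -1.81 ± 0.41, Slc11a2 -2.61 ± 0.55 and Epas1 -1.17 ± 0.37. With the rat group as a block Cybrd1 and Slc11a2 also passed in +/b rats (limma adjusted p = 0.0202 and 0.0208), where 86 of all probe sets were called. Cybrd1 alone of these 4 genes passed for the difference of genotype effects between the segments (limma adjusted p = 0.0218 with the block, 0.252 without). With the block 2 of all probe sets were called for that difference.

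Between genotypes the 35 genes gave, without a block, 1 call in the duodenum, Cybrd1 (4.05 ± 0.41, limma adjusted p = 0.00112), and 0 in the jejunum. Of all 17694 probe sets, 7 were called in the duodenum and 6 in the jejunum. With the array number as a block Tfrc also passed in the duodenum (1.35, limma adjusted p = 0.0260), where 15 of all probe sets were called. Epas1 had 0.95 ± 0.37 in b/b against +/b duodenum (limma adjusted p = 0.789) and 0.0042 ± 0.37 in the jejunum. The list of copper supply to the ferroxidases (5 of 6 genes tested, Atp7a among them), that of ferritin turnover (3 of 6), the iron chaperones (4 of 4) and heme breakdown and export (6 of 6) had 0 called in any of the 5 comparisons without the block, and Atp7a and Hmox1 with it, as given above. Their median changes in b/b against +/b duodenum were 0.08, 0.13, -0.06 and 0.30.

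The genes whose profiles were most like Slc40a1 over the 12 arrays were found without use of their function. The measure was the root mean square difference between log2 profiles centred on their own mean, over 10063 genes. For 1387130_at the 5 nearest were the glucuronosyltransferase Ugt2b35 (0.47), the bicarbonate cotransporter Slc4a7 (0.56), Nadk2 (0.63), the transcription factor Onecut2 (0.63) and Pdx1, a transcription factor of duodenum and pancreas (0.64). For 1390412_at they were Slc4a7 (0.51), Ugt2b35 (0.52), Pdx1 (0.55), Ugt2b7 (0.66) and Onecut2 (0.67). For the dimmer 1376972_at they were Onecut2 (0.43), Mapre3 (0.54), the hormone gene Ghrl (0.56), Reg1a (0.57) and Cyp2s1 (0.57). The brighter pair of Slc40a1 probe sets lay closer to each other, at 0.22, than to any other gene. The dimmer 1376972_at lay closer to Onecut2 (0.43) than to either of that pair (0.51 and 0.61). Pdx1 had jejunum against duodenum changes of -4.53 in b/b rats and -3.48 in +/b rats on the log2 scale, given as a description since the profile was used to choose it.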

How the data were processed

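RNA of mucosal scrapes was hybridised to 12 expression arrays. The authors deposited 1 linear signal intensity for each probe set, and the submitters' processing notes name MAS5 for 10 of the 12 arrays. Its version is not given in the sources. Of 31099 probe sets, 57 controls were removed. Each array was scaled to a 2% trimmed mean of 500, and the 17694 probe sets whose scaled signals averaged 100 or more were kept.

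Differences were tested on log2(scaled signal + 16) with limma 3.58.1 (R 4.3.3), 4 group means, eBayes with intensity trend and Benjamini-Hochberg adjustment over all probe sets; changes of dim genes are understated on this scale. The number of arrays limits the precision. The fit was tested on simulated data. The members, lists and tests were chosen with earlier results of these data known. Every member probe set is named, other iron genes where called, and the 5 genes of nearest profile for each called member probe set. The other iron genes and the cell type markers were each represented by the brightest probe set listing that gene alone. Further probe sets of those genes were not read. Names come from the platform annotation (20826 probe sets with 1 gene, 436 with several, 9780 with none).

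Segments of 1 genotype are paired by group of rats per the series design, and same-numbered arrays deviated together (correlations of 0.16 to 0.38 in b/b and 0.19 to 0.28 in +/b rats). Same-numbered arrays of the 2 genotypes, which came from different rats, also did so in the jejunum (0.12 to 0.42), but not in the duodenum (-0.059 to 0.16). Those of +/b jejunum and b/b duodenum, which share neither rats nor segment, had 0.14 to 0.45, so the number may also mark something other than the rats, which the labels do not name. Alternatives covered the pseudocount, filter, scaling, block, array weights, trend and each array left out.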

Additional observations from a re-analysis of the deposited data

How the results depend on the processing

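The count of member probe sets called was 1 for +/b jejunum against duodenum, 0 with a pseudocount of 1, quantile normalization, no intensity trend or without both arrays deposited on a lower scale, 2 with the replicate block, and 0 to 1 with single arrays left out. For b/b jejunum against duodenum it was 2 to 4 with single arrays left out. For b/b against +/b duodenum it was 2 with values as deposited, where the median of all probe sets shifted by 1.51, with Slc40a1 1387130_at and Ncoa4 called higher. The replicate block changed no other member call. Between genotypes, where the array number is the only link, that block gave Fth1 in the duodenum an SE of 0.20 (limma adjusted p = 0.562) and called Tfrc, the transferrin receptor, higher in b/b rats (1.35, limma adjusted p = 0.0260, against 0.134 without it). The duodenum array rich in pancreas markers was +/b duodenum replicate 2 alone, so that alternative equals leaving it out. Over all probe sets, b/b jejunum against duodenum had 135 called, 431 with the block, 642 with array weights, 63 without the trend and 40 as deposited. The same contrast in +/b rats had 10, against 86, 18, 2 and 8673, with 17 unfiltered, 6 with a pseudocount of 1 and 5 with quantile normalization or without both rescaled arrays. In the duodenum 7 became 15 with the block, 366 as deposited and 3 without those arrays. In the jejunum 6 became 2 as deposited or without the trend, 3 with a pseudocount of 1 and 4 with a filter of 200.

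Of 485 member values under settings that kept single arrays in, 26 changed sign, all of them uncalled, and the cause was not tested. As deposited, b/b against +/b duodenum gave Ftl1 1.67, Fth1 1.41 and Cp 0.88 and 0.81. The +/b jejunum against duodenum contrast gave Ftl1 1.40, Fth1 1.27 and Heph 1.35. Its count of calls stayed at 1, but the call moved: Slc40a1 1390412_at did not pass (-0.99, limma adjusted p = 0.206) and Ncoa4 was called higher in the jejunum (2.27, limma adjusted p = 0.0458). The difference of genotype effects gave Ftl1 -1.59, Fth1 -1.44, Cp -1.14 and -0.83 and Heph -1.72. Quantile normalization gave Ftl1 0.031 in the duodenum, Ncoa4 -0.014 in the jejunum, Fth1 0.092 in b/b and 0.0078 in +/b rats between segments, and Heph -0.0036 for the difference of effects. Median centring gave Fth1 0.011 and Cp 0.021 between genotypes in the jejunum, and Cp -0.047 between segments in +/b rats. Array weights gave Ncoa4 -0.10 in the jejunum, Fth1 0.057 in b/b rats between segments and Heph -0.044 for the difference. Without both rescaled arrays Heph had -0.17 for the difference, and Cp -0.43 and Ncoa4 -1.26 between segments in +/b rats.

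With single arrays left out, 24 of 45 results changed sign in some fit. Between genotypes in the duodenum these were Ftl1 (-0.31 to 0.17), Fth1 (-0.91 to 0.085), Cp 1368420_at (-0.70 to 0.016), Heph (-0.032 to 0.13) and Slc40a1 1376972_at (-0.0075 to 0.28). In the jejunum they were Ftl1 (-0.14 to 0.34), Fth1 (-0.39 to 0.36), Cp 1368418_a_at (-0.49 to 0.041), Cp 1368420_at (-0.17 to 0.15), Ncoa4 (-0.34 to 0.31) and Slc40a1 1376972_at (-0.82 to 0.0093), 1387130_at (-0.65 to 0.11) and 1390412_at (-0.59 to 0.21). Between segments they were Ftl1 (-0.44 to 0.073), Fth1 (-0.60 to 0.40) and Cp 1368418_a_at (-0.031 to 0.50) in b/b rats, and Cp 1368418_a_at (-0.24 to 0.28), Cp 1368420_at (-0.060 to 0.26) and Ncoa4 (-1.06 to 1.51) in +/b rats. For the difference of effects they were Ftl1 (-0.092 to 0.42), Fth1 (-0.11 to 0.89), Cp 1368418_a_at (-0.087 to 0.45), Cp 1368420_at (-0.035 to 0.69) and Heph (-0.064 to 0.13).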
